A study of Mus musculus with 8 samples.

Results

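Collagen, laminin and nidogen chains are the structural proteins of basement membranes and of the fibrous matrix between cells. The genes described here were chosen by their symbols: every probe set annotated to a single collagen alpha chain, laminin alpha, beta or gamma chain or nidogen gene was taken, without Col9a3. Each gene was represented by the probe set with the highest mean over the arrays. This gave 41 genes, measured by 58 probe sets, of the 8251 genes with a probe set of their own on the array. They comprised 8 chains of fibrillar collagens, 5 of collagen IV, 3 of collagen VI, collagens XV and XVIII (2 genes), 12 other collagen chains, 5 laminin alpha, 3 laminin beta and 1 laminin gamma chain and 2 nidogens.

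Expression had been measured in whole gonads of mouse embryos on 8 Affymetrix MG_U74Av2 arrays. The 8 groups were wild-type (WT) and Wnt4 knock-out (KO) females at E12.5, WT and Wnt4 KO males at E12.5, and the same 4 kinds of embryo at E14.5, with 1 array in each group. Wnt4 encodes a secreted signal of the early ovary, and E12.5 and E14.5 are days on which testis and ovary take separate courses. The labels state that embryos were chosen by hand for their morphology and that gonads stayed frozen until genotyping. The labels do not state how the Wnt4 allele was made, the strain, or how many gonads went into an array. The whole organ was used, so that fewer cells of a type and less RNA per cell cannot be told apart in any value.

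A basement membrane is a sheet built from a laminin network and a collagen IV network, which nidogens and the proteoglycan perlecan link together. In the fetal testis, Sertoli cells and peritubular myoid cells lay down such a sheet around each forming cord, while in the fetal ovary thinner sheets surround clusters of germ cells and their supporting cells. Fibrillar collagens I, III and V form the fibres of the stroma, collagen VI forms beaded filaments close to cells, and collagens XV and XVIII lie where basement membranes meet that stroma.

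Values are log2 signals, shifted so that the arrays share a median, and values under 6.99, the 40th percentile of all values, were raised to that floor before testing. Differences were tested with limma across the 8452 probe sets that exceeded this floor on 2 arrays or more, two-sided, with Benjamini-Hochberg adjustment over all of them at 0.05. Replicate arrays were absent in every group. The spread behind most tests therefore came from the part of the KO effect that differed between the stages, with 2 residual degrees of freedom. For the KO effects within a stage, a second fit took it from the part that differed between the sexes, also with 2. Each ± is an SE of the fit in question. The E14.5 male arrays stood apart: over the fitted probe sets they correlated with each other at r = 0.992 and with the other 6 arrays at 0.728 to 0.786, against 0.954 to 0.995 among those 6. The deposited array medians ran from 7.04 to 7.85, and centring raised the male arrays of E14.5 by 0.43 and 0.47. The array labelled WT female E14.5 went partly against its label, with the Y-linked gene Eif2s3y at 7.63 (4.86 to 6.04 on the other females, 6.91 to 8.12 on the males) and the lowest Xist level of the females, 7.10. The 3' minus 5' gap of beta actin, a sign of RNA quality, was 0.49 on both E12.5 female arrays and 0.96 and 1.10 on the E12.5 male arrays. At E14.5 it was 0.77 and 0.55 in females and 1.37 and 1.09 in males. The same gap of Gapdh was 0.047 and -0.003 in females and 0.22 and 0.21 in males at E12.5. At E14.5 the Gapdh gap had the sexes in reverse order, with 0.30 and 0.13 in females and -0.02 and -0.09 in males. Wnt4 itself was lower in each KO than in its WT partner, at 8.59 against 10.19 and 8.32 against 9.45 in females, and at 8.34 against 9.26 and 9.19 against 9.42 in males (E12.5 and E14.5), so that the gap was smallest in the E14.5 males.

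Several of these genes are neighbours in the genome, and the promoters of 2 such pairs are shown here. In the RefSeq annotation of GRCm38.p6, Col4a1 with Col4a2 on chromosome 8 and Col6a1 with Col6a2 on chromosome 10 lie side by side, as do Col3a1 with Col5a2, Col4a3 with Col4a4 and Col9a1 with Col19a1 on chromosome 1. Of the 41 genes, 28 had an entry in the RefSeq promoter table, which holds 250 bases before to 50 bases after each start site. The collagen IV pair is shown because its genes are read in opposite directions from start sites 21 bases apart, so that their windows share 78 bases. Those shared bases are in capitals, and each sequence runs 5′ to 3′ on its own gene's strand.

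Col4a1, chr8:11312777-11313076, minus strand: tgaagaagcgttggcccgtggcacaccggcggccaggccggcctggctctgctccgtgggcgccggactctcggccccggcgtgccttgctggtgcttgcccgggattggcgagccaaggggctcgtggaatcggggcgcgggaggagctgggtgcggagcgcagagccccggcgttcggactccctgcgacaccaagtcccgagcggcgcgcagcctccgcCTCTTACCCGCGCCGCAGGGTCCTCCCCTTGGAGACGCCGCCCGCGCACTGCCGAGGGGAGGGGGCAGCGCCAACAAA

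Col4a2, chr8:11312555-11312854, plus strand: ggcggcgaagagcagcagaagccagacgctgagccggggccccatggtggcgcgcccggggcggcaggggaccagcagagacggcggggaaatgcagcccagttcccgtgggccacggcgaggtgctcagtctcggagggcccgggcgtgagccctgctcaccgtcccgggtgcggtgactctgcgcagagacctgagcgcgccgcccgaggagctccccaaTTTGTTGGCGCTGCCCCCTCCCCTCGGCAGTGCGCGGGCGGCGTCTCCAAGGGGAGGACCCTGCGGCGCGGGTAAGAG

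The collagen VI pair is shown because both genes were higher at E14.5 than at E12.5 in females. These genes are read in the same direction from windows of their own, and capitals mark the letters of a GC box (GGGCGG, or CCGCCC on the other strand) or a CCAAT box (CCAAT or ATTGG).

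Col6a1, chr10:76725995-76726294, minus strand: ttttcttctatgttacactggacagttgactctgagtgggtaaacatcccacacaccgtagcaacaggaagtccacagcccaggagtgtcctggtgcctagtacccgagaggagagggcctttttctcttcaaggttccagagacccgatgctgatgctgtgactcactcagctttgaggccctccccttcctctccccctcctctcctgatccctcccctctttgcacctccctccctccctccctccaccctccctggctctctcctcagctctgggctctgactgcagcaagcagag

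Col6a2, chr10:76623355-76623654, minus strand: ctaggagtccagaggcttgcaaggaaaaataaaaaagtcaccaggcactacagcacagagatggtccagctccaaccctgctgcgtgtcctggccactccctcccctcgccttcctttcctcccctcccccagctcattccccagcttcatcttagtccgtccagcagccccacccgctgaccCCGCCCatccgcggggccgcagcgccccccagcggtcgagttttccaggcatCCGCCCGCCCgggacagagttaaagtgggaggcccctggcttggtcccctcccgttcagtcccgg

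The Col6a2 window, the first of its 2 in the table, held 3 GC boxes, 2 of them overlapping, and that of Col6a1 held none. The Col4a1 window held 1 GC box and 1 CCAAT box, and the Col4a2 window held 3 and 1. A GC box was found in 17 of 30 windows of the fitted genes (56.7%) and in 35.7% of all 32851 windows of the table. For CCAAT the shares were 36.7% and 37.4%, for TATAAA 13.3% and 13.6%, and for AACAAT, letters that SOX factors can bind, 3.33% and 10.7%, with both strands searched. None of the windows printed here held TATAAA or AACAAT.

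Of the 41 genes, 35 exceeded the floor on 2 arrays or more and entered the tests, and 27 of these were above it on all 8. Chains not above the floor on any array were Col2a1, the collagen of cartilage, Col10a1, Col19a1, Col22a1, Col4a3 and Lama3, a laminin chain of epithelia. Of 9 cartilage markers with a probe set, at most 2 were above the floor on an array. Between 28 and 32 of the 41 genes were above the floor on each female and E12.5 male array, and 35 on each E14.5 male array. Nid1, the first nidogen, and Col12a1, a collagen that binds to fibrils, were above the floor on the E14.5 male arrays alone: Nid1 at 7.08 and 7.0 against 5.97 to 6.42 elsewhere, and Col12a1 at 7.48 and 7.35 against 6.25 to 6.49. They entered the tests through those arrays, and 4.39% of the 12422 probe sets other than controls had the same pattern. A further Col12a1 probe set was not above the floor on any array.

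**Figure D1:**
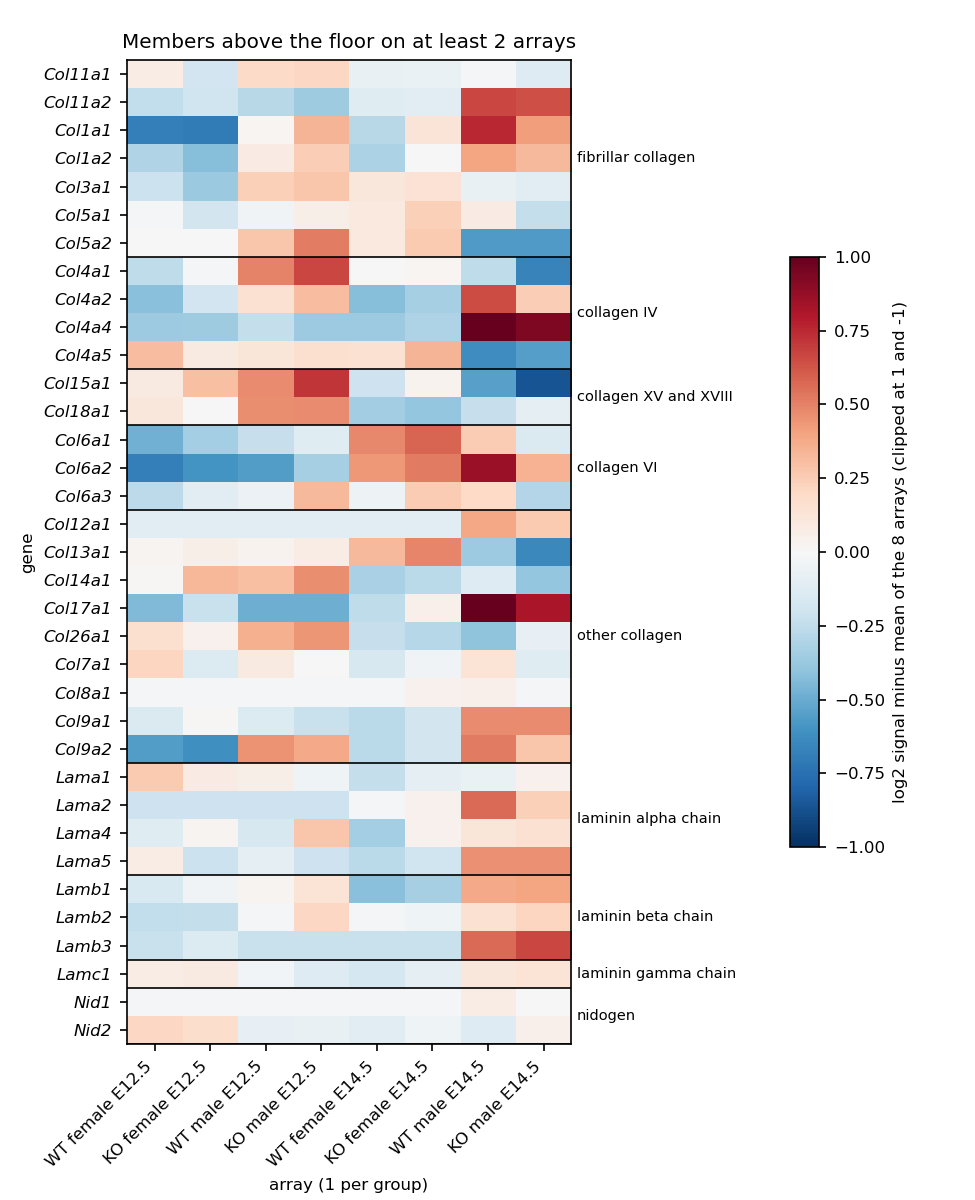
Level of the 35 fitted genes (rows, by role) on each of the 8 arrays (columns), as the floored log2 signal minus the gene's mean over the arrays, with the colour scale clipped at 1 and -1. The columns of the E14.5 males differ from the rest in many rows, and collagen VI is higher on the E14.5 than on the E12.5 female arrays.

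The sexes were compared at E12.5, when cords have just formed in the testis. Fibrillar chains (Col1a1, Col3a1, Col5a2), Col4a1 of collagen IV, Col18a1, Col9a2 and the laminin chain Lamb2 were higher in male than in female gonads, with the same sign in WT and in KO embryos. Of the 35 fitted genes, 7 passed as higher in males and 0 as lower, against a background of 16.3% of all probe sets passing (7.79% higher, 8.51% lower). At an unadjusted p under 0.05 they numbered 14 of 35, a share close to the 36.5% of all probe sets. The difference was positive for 26 of 35 genes with a median of 0.11, beside 50.7% and a median of 0 over all probe sets. Without the KO male E12.5 array it was positive for 16 genes with a median of -0.02, and without the KO female E12.5 array for 18 with a median of 0.03. In 3 genes both the WT and the KO pair differed by at least 0.5, a share of 8.57% beside 1.75% of all probe sets.

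Among fibrillar collagens, 3 of 7 passed. Col1a1, the main chain of collagen I, was at 11.11 and 11.10 on the E12.5 female arrays (WT and KO, the order kept throughout) and at 11.81 and 12.13 on the male arrays. The ranges did not overlap, and the difference was 0.87 ± 0.19 (1.83-fold, limma adjusted p = 0.0437). Col3a1, the chain of collagen III, was at 11.01 and 10.85 in females and at 11.46 and 11.50 in males, a difference of 0.55 ± 0.07 (adjusted p = 0.0225 by limma). Its neighbour Col5a2, a chain of collagen V that helps set fibril width, was at 9.97 on both female arrays and at 10.26 and 10.50 in males (0.40 ± 0.08, limma adjusted p = 0.0418). Col1a2, the partner chain of Col1a1, stood at 11.63 and 11.51 in females and 12.01 and 12.18 in males, and missed the threshold at 0.53 ± 0.13 (limma adjusted p = 0.0530). A further Col1a2 probe set went the other way, at -0.44, and passed as lower in males. The further probe sets of Col1a1 (0.51) and Col3a1 (0.27 to 0.45) had the same sign as the chosen ones. Col5a1 differed by 0.11, Col11a1 by 0.26 and Col11a2, a chain known from cartilage, by -0.09, with none past the threshold.

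In basement membranes, the chains of the main collagen IV network gave differences of like size, of which 1 passed. Col4a1 was at 10.18 and 10.42 in females and at 10.93 and 11.11 in males, a difference of 0.72 ± 0.15 that passed (1.65-fold, limma adjusted p = 0.0433). Col4a2, its partner in the same trimer and its neighbour on the chromosome, was at 10.07 and 10.30 in females and at 10.64 and 10.79 in males, and did not pass (0.53 ± 0.14, limma adjusted p = 0.0643). Col4a4 and Col4a5, chains of the specialised collagen IV networks, differed by 0.06 and -0.06. Col18a1, whose product carries endostatin at its end, was at 10.99 and 10.88 in females and at 11.34 and 11.35 in males (0.41 ± 0.06, limma adjusted p = 0.0257). All 4 further probe sets of Col18a1 gave differences from 0 to 0.94. Col15a1, the relative of Col18a1, was at 8.28 and 8.49 against 8.66 and 8.90 and did not pass (0.40 ± 0.14, limma adjusted p = 0.119).

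Col9a2 had the largest difference of the 35 genes. This chain of collagen IX, which decorates collagen II fibrils in cartilage, was at 8.43 and 8.37 in females and at 9.43 and 9.36 in males (1.0 ± 0.08, 2.0-fold, limma adjusted p = 0.0214). Both pairs gave nearly the same value, 1.01 in WT and 0.99 in KO. Col9a1, another chain of the same trimer, was at 8.61 and 8.77 in females and 8.61 and 8.53 in males (-0.12 ± 0.06, limma adjusted p = 0.262), and Col2a1 was not above the floor on any array. The remaining chains of the other collagens did not pass. Their differences ran from -0.16 for Col17a1, a chain that spans the cell membrane, to 0.30 for Col26a1, a collagen known from testis and ovary. Col17a1 was under the floor on both E12.5 male arrays, so that its value is a bound. A further Col13a1 probe set gave 0.19 and passed as higher in males. The 3 collagen VI chains had positive differences (median 0.23) that did not pass, but a further Col6a1 probe set gave 0.66 and passed.

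Laminin and nidogen genes gave differences of both signs. Lamb2, a laminin beta chain of mature basement membranes, was at 7.44 on both female arrays and at 7.67 and 7.89 in males (0.34 ± 0.06, limma adjusted p = 0.0341). The remaining 7 fitted laminin chains did not pass on their chosen probe sets. Lamb1 gave 0.17, Lamc1, the gamma chain that most laminins contain, gave -0.16, and Lama1 and Lama5 gave -0.16 and -0.08. A further Lamb1 probe set gave 0.45 and passed as higher in males. Nid2, which ties laminin to collagen IV, was at 9.22 and 9.19 in females and at 8.93 and 8.94 in males. Its ranges did not overlap, with the females higher, but the difference of -0.27 ± 0.07 did not pass (limma adjusted p = 0.0684).

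The calls at E12.5 did not hold in fits with 1 array left out, which have 1 pair fewer behind their spread. With an E14.5 array left out, the median difference of the 35 genes stayed at 0.11. With any 1 of the 8 arrays left out, 0 of 8452 probe sets passed in this comparison, and the adjusted p of the 7 genes then lay between 0.104 and 0.328. Sertoli markers moved with these genes: of 14 such genes with a probe set, 11 were above the floor in females and 11 to 12 in males, 5 of 13 fitted ones passed as higher and 0 as lower in males, and their summed level was 11.97 and 12.05 in females and 12.99 and 12.96 in males. Endothelial markers summed to 12.37 and 12.33 in females and 12.44 and 12.59 in males (1 of 11 higher), and smooth muscle and myoid markers to 10.72 and 10.87 against 10.74 and 10.90 (1 of 7 higher, 1 lower). The actin gap given above differed between the sexes as well, and the part of these values in the result was not tested.

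**Figure D2:**
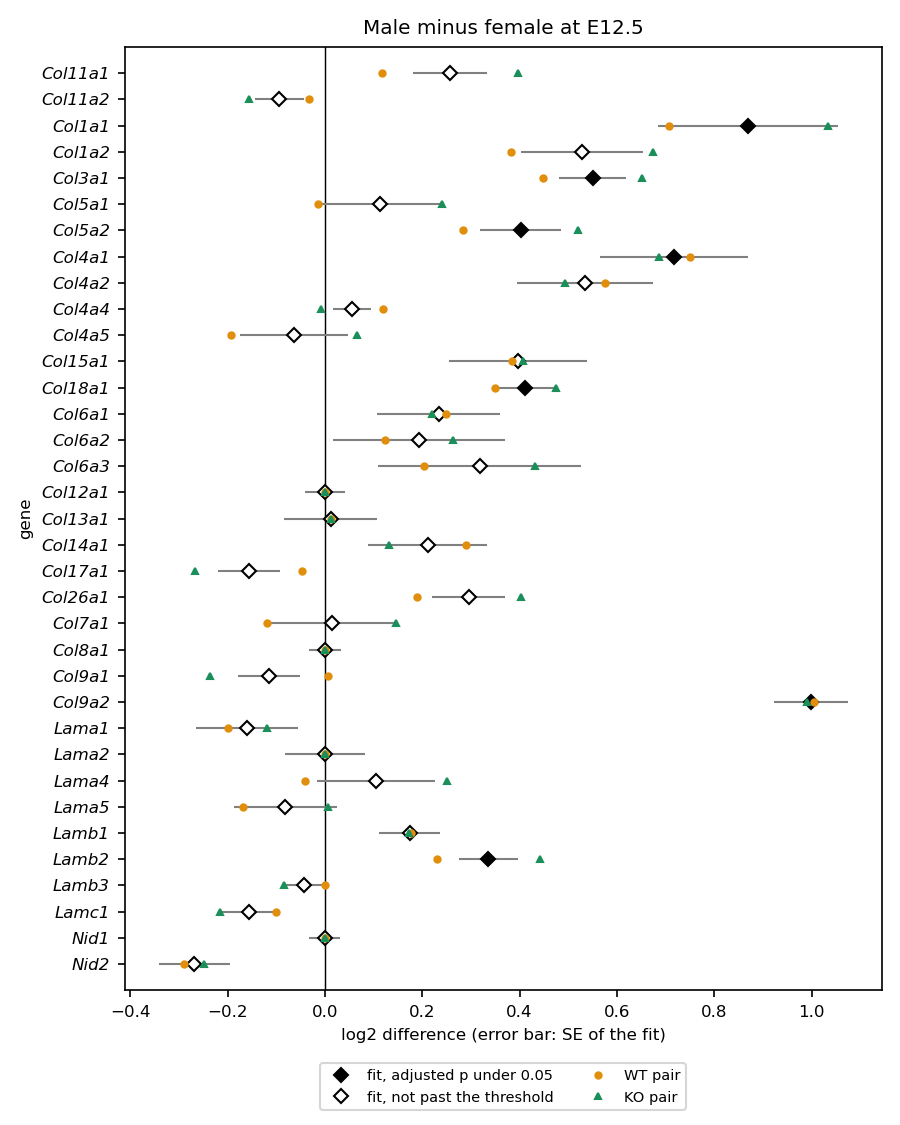
Male minus female log2 difference at E12.5 for the 35 fitted genes, with diamonds for the fit (filled where the adjusted p was under 0.05), bars for its SE, circles for the WT pair of arrays and triangles for the KO pair. Filled diamonds lie to the right of 0 in each case, from Lamb2 at 0.34 to Col9a2 at 1.0, while Nid2, Lamc1 and Lama1 lie to the left.

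Between E12.5 and E14.5 in females, Col6a1 and Col6a2 of collagen VI, Col3a1 and Col9a2 rose, and Col18a1 and Col26a1 fell. Lamb1 fell on its chosen probe set only. The stage comparison in females had 4 genes higher at E14.5 and 3 lower of 35, against a background of 23.1% of all probe sets passing (8.41% higher, 14.6% lower), a share of passing genes close to that of all probe sets. The change was positive for 18 of 35 genes (51.4%, beside 39.7%), with a median of 0.02, beside -0.02 over all. In 2 genes, Col6a1 and Col6a2, both pairs rose by at least 0.5 (5.71%, beside 1.8% of all probe sets).

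Col6a2, a short chain of collagen VI, was at 9.79 and 9.88 on the E12.5 female arrays and at 10.91 and 10.996 on the E14.5 female arrays. The change of 1.12 ± 0.18 was 2.17-fold (limma adjusted p = 0.0191). Col6a1, the other short chain, was at 10.70 and 10.84 at E12.5 and at 11.66 and 11.77 at E14.5 (0.94 ± 0.13, 1.92-fold, adjusted p = 0.0143 by limma), and its further probe set gave 1.52. In the KO pair alone, which does not use the array labelled WT female E14.5, the changes were 1.12 and 0.93. Col6a3, the long chain of the same trimer, went from 9.34 and 9.49 to 9.55 and 9.85 and did not pass (0.29 ± 0.21, limma adjusted p = 0.376).

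Fibrillar collagens were mostly positive, with 6 of 7 above 0 and 1 passing. Col3a1 went from 11.01 and 10.85 to 11.34 and 11.37 (0.42 ± 0.07, limma adjusted p = 0.0201), and its further probe sets gave 0.41 to 0.76. Col1a1 went from 11.11 and 11.10 to 11.52 and 11.92, and did not pass (0.62 ± 0.19, limma adjusted p = 0.0738). Col9a2 passed too, from 8.43 and 8.37 to 8.71 and 8.80 (0.36 ± 0.08, limma adjusted p = 0.0346).

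Lower at E14.5 were Col18a1, Col26a1 and 1 laminin chain. Col18a1 went from 10.99 and 10.88 at E12.5 to 10.53 and 10.49 at E14.5 (-0.42 ± 0.06, limma adjusted p = 0.0159). Col26a1 went from 10.22 and 10.09 to 9.82 and 9.77 (-0.36 ± 0.08, limma adjusted p = 0.0335). Lamb1 went from 8.72 and 8.84 to 8.45 and 8.54 (-0.28 ± 0.06, limma adjusted p = 0.0372), but its further probe set gave 0.11, so the gene has no settled direction. Lamc1 (-0.21) and Nid2 (-0.26) had negative differences that did not pass. The main collagen IV chains stood nearly level in females, with 0.15 ± 0.15 for Col4a1 and -0.07 ± 0.14 for Col4a2.

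The calls in females did not hold either in fits with 1 array left out, which have 1 pair fewer behind their spread. With a male array left out, the median change of the 35 genes stayed at 0.02. With any 1 array left out, 0 of 8452 probe sets passed, and the 7 genes had adjusted p from 0.105 to 0.269. On the values as deposited, without centring, where the median of all probe sets was -0.27, 2 genes were higher and 12 lower. Smooth muscle and myoid markers summed to 10.72 and 10.87 at E12.5 and 11.43 and 11.38 at E14.5 in females, with 1 of 7 passing as higher, and their part in the result was not tested.

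**Figure D3:**
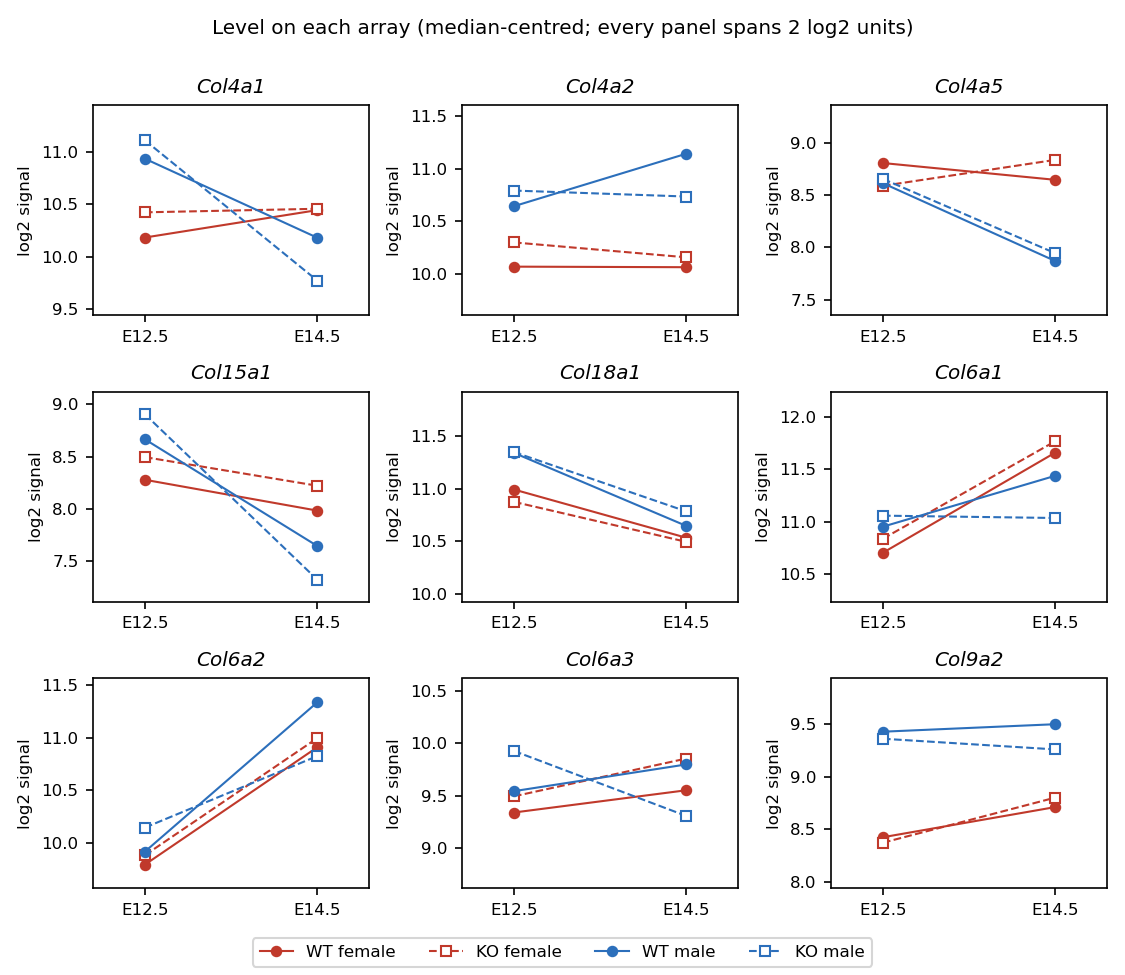
Centred log2 signal of 9 genes on each array at E12.5 and E14.5, with circles and full lines for WT, squares and dashed lines for KO, red for females and blue for males; each panel spans 2 log2 units. Col6a1 and Col6a2 rise in both female lines, and Col4a1 falls in both male lines while Col4a2 rises in WT males and stays nearly level in KO males.

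In males the stage comparison rests on the arrays that stand apart, so differences of those arrays and of the testes they hold cannot be told apart. It had 11 genes higher and 10 lower at E14.5 of 35, a share of 60.0% against a background of 77.8% of all probe sets passing (38.0% higher, 39.9% lower). Without centring the split was 4 higher and 23 lower, with the median of all probe sets at -0.69. It was 12 and 5 without either KO male array, and 8 and 8 without either WT male array. The directions that follow hold relative to the array median.

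Collagen IV chains changed in both directions in males. Col4a1 went from 10.93 and 11.11 at E12.5 to 10.18 and 9.77 at E14.5 (-1.04 ± 0.15, limma adjusted p = 0.00225). Col4a2 went from 10.64 and 10.79 to 11.15 and 10.74, with overlapping ranges and no call (0.22 ± 0.14, limma adjusted p = 0.204). Both genes start within the 78 shared bases shown above. The difference between the changes of the 2 genes was not tested. Col4a4 went from 7.11 and 6.94 to 8.40 and 8.29 (1.297 ± 0.04, limma adjusted p = 6.6e-05), a value that depends on the floor, and Col4a5 from 8.61 and 8.65 to 7.87 and 7.95 (-0.73 ± 0.11, limma adjusted p = 0.00276).

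Collagens XV and XVIII both fell. Col15a1 went from 8.66 and 8.90 to 7.65 and 7.33 (-1.296 ± 0.14, limma adjusted p = 0.000793) and Col18a1 from 11.34 and 11.35 to 10.65 and 10.78 (-0.63 ± 0.06, limma adjusted p = 0.000488). For Col18a1 the further probe sets ran from -1.53 to 0.04. Col6a2 rose from 9.91 and 10.14 to 11.34 and 10.82 (1.05 ± 0.18, limma adjusted p = 0.00388), as it did in females. Col6a1, at 10.95 and 11.06 and then 11.44 and 11.04, did not pass (0.23 ± 0.13, limma adjusted p = 0.151), while its further probe set gave 1.0 and passed.

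Among fibrillar collagens, Col11a2 rose from 7.34 and 7.26 to 8.29 and 8.26 (0.98 ± 0.05) and Col5a2 fell from 10.26 and 10.50 to 9.41 on both arrays (-0.96 ± 0.08). Col3a1 fell by 0.35 ± 0.07, against a rise in females, while a further probe set of it gave 0.22. Col1a1, at 11.81 and 12.13 and then 12.55 and 12.21, did not pass (0.41 ± 0.19, limma adjusted p = 0.0994). Of the other collagens, Col17a1 went from under the floor (6.75 and 6.68) to 8.48 and 8.29 (fitted 1.40 ± 0.06, with pair differences of at least 1.49 and 1.304). Col9a1 rose from 8.61 and 8.53 to 9.23 and 9.22 (0.65 ± 0.06), a sign that turned to -0.13 without centring. Col14a1 fell by 0.64 ± 0.12, from 7.99 and 8.15 to 7.56 and 7.30, and Col26a1 by 0.64 ± 0.07, from 10.41 and 10.50 to 9.65 and 9.97. Col13a1 (-0.56), Col11a1 (-0.28) and Col12a1 (0.43, fitted against arrays at the floor) passed too. Col6a3, Col5a1, Col1a2, Col7a1, Col8a1 and Col9a2 did not, with values from -0.18 to 0.20, although a further Col1a2 probe set gave 1.01 and passed. The limma adjusted p of the passing genes with an SE in this paragraph ran from 7.8e-05 for Col17a1 to 0.00664 for Col3a1.

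Laminin chains had positive differences in 7 of 8 cases, and all 35 genes in 20 (57.1%, beside 48.3% of all probe sets). Lamb3, a beta chain of epithelial laminin, went from under the floor (6.59 and 6.45) to 7.77 and 7.87 (fitted 0.83 ± 0.04, limma adjusted p = 0.000102), and Lama5, the alpha chain of mature basement membranes, from 8.29 and 8.17 to 8.84 on both arrays (0.61 ± 0.11, limma adjusted p = 0.00424). Further probe sets of Lamb3 and Lama5, under the floor at E12.5, gave 0.15 and 0.84, and both passed. Lama2, under the floor at E12.5, passed with at least 0.61, and Lamc1 and Lamb1 with 0.20 and 0.30. A further Lamb1 probe set gave -1.07, so that this gene again has no settled direction. Lama1 (-0.02), Lama4 (0.08) and Lamb2 (0.09) did not pass, nor did Nid1 (0.05) and Nid2 (0.04). Nid1 was under the floor at E12.5 (6.28 and 6.42), so that its value is a lower bound. While the 35 genes went both ways in males, smooth muscle and myoid markers had 6 of 7 fitted markers higher and 0 lower. Their summed level was 10.74 and 10.90 at E12.5 and 11.92 and 11.58 at E14.5. Leydig markers had 5 of 8 higher and 0 lower, and mesonephros and duct markers 4 of 8 higher and 2 lower. Sertoli markers had 3 of 13 higher and 5 lower, and endothelial markers 2 of 11 higher and 4 lower. The part of these lists in the result was not tested.

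**Figure D4:**
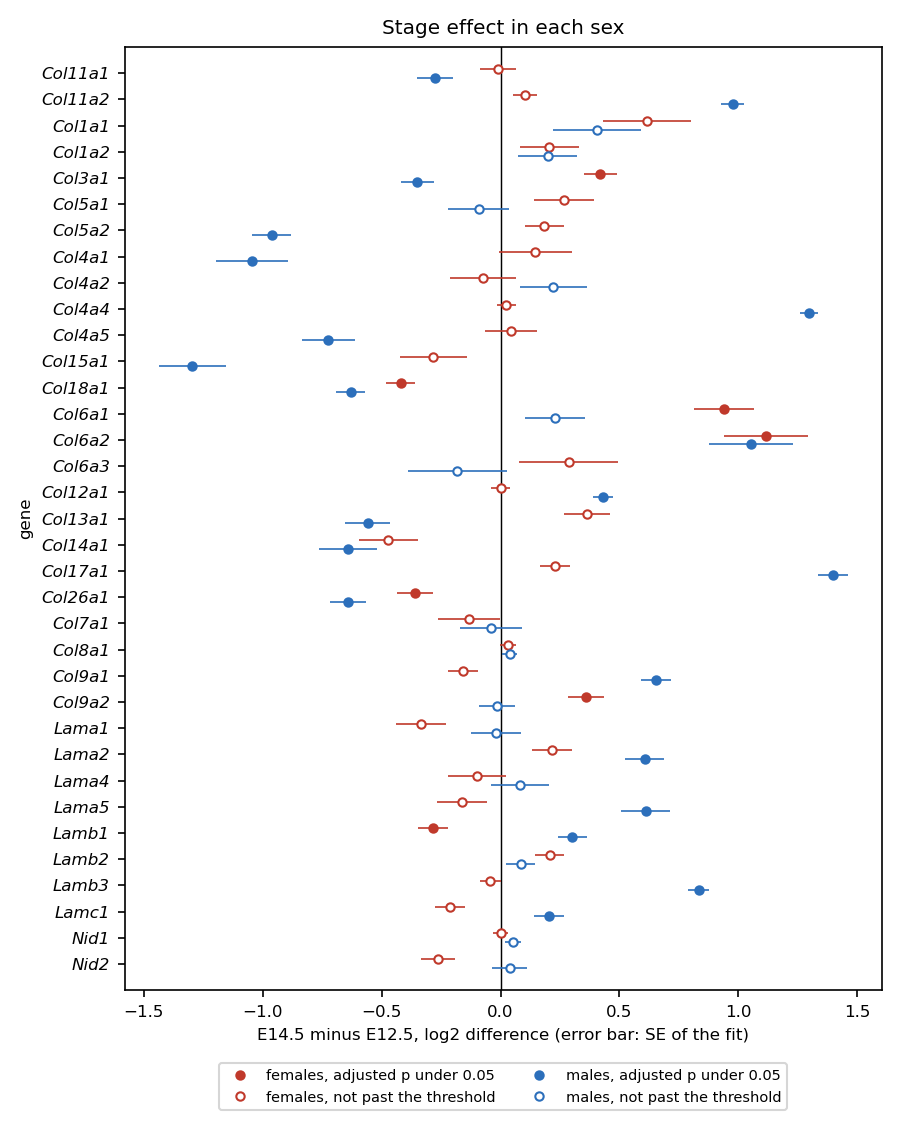
E14.5 minus E12.5 log2 difference in females (red) and males (blue) for the 35 fitted genes, filled where the adjusted p was under 0.05, with bars for the SE of the fit. Red and blue points lie on opposite sides of 0 for Col3a1, Col13a1, Col9a1, Lama5, Lamb1 and Lamc1, and on the same side for Col6a2, Col18a1 and Col26a1.

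At E14.5, 16 of 35 genes were higher in males and 7 lower, a share of 65.7% against a background of 77.5% of all probe sets passing (39.5% higher, 38.0% lower); without centring the split was 9 and 12. Col4a2 was higher in males, at 11.15 and 10.74 against 10.06 and 10.16 (0.83 ± 0.14), and Col4a1 lower, at 10.18 and 9.77 against 10.44 and 10.46 (-0.47 ± 0.15), with limma adjusted p of 0.00401 and 0.0369. Without the array labelled WT female E14.5 the Col4a1 value was -0.36 and did not pass (limma adjusted p = 0.297). Without it 12 of the 23 calls remained, and Col4a2, Col1a1, Col1a2, Col3a1, Col6a1, Col15a1, Col18a1, Lama2, Lamb2 and Lamc1 did not pass either, with limma adjusted p from 0.0535 to 0.255. Col9a2 was higher in males at this stage too, at 9.50 and 9.26 against 8.71 and 8.80 (0.62 ± 0.08, limma adjusted p = 0.00122). Col1a1 was at 12.55 and 12.21 against 11.52 and 11.92 (0.66 ± 0.19, limma adjusted p = 0.0238), but did not pass in any fit with 1 array left out (0.33 to 0.99, limma adjusted p from 0.0648 to 0.310). Col13a1, a collagen anchored in the cell membrane, was lower in males, at 7.73 and 7.46 against 8.42 and 8.58 (-0.91 ± 0.10, limma adjusted p = 0.000750). Col4a5 (-0.83) and Col5a2 (-0.75) were lower in males. Col4a4 (1.33), Col17a1 (1.01), Lamb3 (0.83), Col11a2 (0.78), Col9a1 (0.70) and Lama5 (0.69) were higher. Lamb3 was under the floor on both E14.5 female arrays and Col4a4 on the WT one, so that these values are lower bounds. Col1a2 (0.52), Lama2 (0.39), Lamc1 (0.26), Lamb2 (0.21) and Col18a1 (0.20) passed as higher too, as did Col12a1 (at least 0.43), which entered the test only through the E14.5 male arrays and so had to differ. Col15a1 (-0.62), Col6a1 (-0.48) and Col3a1 (-0.22) passed as lower on their chosen probe sets. Further probe sets did not all share the direction. That of Col6a1 was at 10.18 and 9.71 in males against 9.76 and 9.84 in females. For Col3a1 they were at 9.62 and 9.80 against 9.56 and 9.68, and at 8.20 and 8.38 against 8.70 and 8.77. The further probe set of Col1a1 was at 10.86 and 10.79 against 10.83 and 10.95. That of Col12a1, under the floor on all of these arrays, was at 6.55 and 6.46 in males against 6.67 and 6.81 in females. That of Col13a1, also under the floor, was at 6.83 and 6.60 against 6.87 and 6.68. That of Lamb3 was at 7.17 and 7.10 against 6.71 and 6.88. Lamb1 was higher by 0.76 on the chosen probe set, and lower, at -0.33, on the mean of its probe sets.

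The change from E12.5 to E14.5 itself differed between the sexes for 18 of 35 genes, 10 more positive in males and 8 less so, a share of 51.4% against 69.0% of all probe sets (35.2% more positive, 33.8% less). Collagen IV gave both signs: Col4a4 at 1.27 and Col4a1 at -1.19. Without centring the split was 5 and 17.

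The Wnt4 knock-out was set against WT in each sex to ask which chains depend on that signal. No collagen, laminin or nidogen gene passed in females, in males, over both sexes or in the difference between the sexes, and 0.0% of all probe sets passed in each of these comparisons by limma. At an unadjusted p under 0.05 the genes numbered 1 in females (2.86%, beside 11.4% of all probe sets), 2 in males (5.71%, beside 4.79%), 1 over both sexes (2.86%, beside 5.76%) and 3 for the difference (8.57%, beside 11.5%). In fits with the knock-out within each stage, 0 of these genes passed at E12.5, where 0.0828% of all probe sets did, and 0 at E14.5 (0.0%), with 1 gene (beside 3.69% of all probe sets) and 0 genes (beside 4.18%) at an unadjusted p under 0.05.

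In females the differences were small. They were positive for 23 of 35 genes (65.7%), beside 35.7% of all probe sets, with medians of 0.03 and -0.02. Both stages were positive in 16 genes (45.7%, beside 19.9%) and both negative in 2 (5.71%, beside 37.6%). Col17a1 was at 7.25 in the KO against 7.03 in the WT at E12.5 and at 7.52 against 7.22 at E14.5, a difference of 0.26 ± 0.06 with limma adjusted p = 0.433. Col15a1 was at 8.49 against 8.28 and at 8.22 against 7.98 (0.23 ± 0.14, limma adjusted p = 0.526), and Col6a3 at 9.49 against 9.34 and at 9.85 against 9.55 (0.23 ± 0.21, limma adjusted p = 0.659). On the other side stood Col26a1 (-0.09 ± 0.08, limma adjusted p = 0.628) and Col18a1 (-0.08 ± 0.06, limma adjusted p = 0.598), the latter at 0.01 after quantile normalization. In the E14.5 pair, 29 of 35 genes were positive (82.9%, beside 36.8%). There 5 genes were higher by at least 0.3 (14.3%, beside 2.13% of all probe sets) and 0 lower by as much (beside 6.25%). That pair uses the array that went partly against its label. In the E12.5 pair, 18 were positive (51.4%, beside 35.3%).

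In males, 12 of 35 differences were positive (34.3%, beside 54.6% of all probe sets). At E12.5, 21 of 35 were positive (60.0%, beside 52.9%), with a median of 0.03. At E14.5, 23 were negative (65.7%, beside 43.3%), with a median of -0.08, and 9 were lower by at least 0.3 (25.7%, beside 1.8% of all probe sets). These 9 were single pair differences with no test: Col6a2 (-0.51), Col6a3 (-0.49), Col4a1 (-0.41), Col4a2 (-0.41), Col6a1 (-0.40), Col1a1 (-0.34), Lama2 (-0.33), Col15a1 (-0.32) and Col5a1 (-0.32). They held all 3 collagen VI chains and both main collagen IV chains. The further probe set of Col6a1 was at 9.71 in the KO and 10.18 in the WT. That of Col1a1 was at 10.79 and 10.86, and that of Col5a1 at 9.33 and 9.46. Beside them, the summed level of smooth muscle and myoid markers was 11.58 in the KO and 11.92 in the WT male. That of Sertoli markers was 12.66 and 13.11, of Leydig markers 13.04 and 13.55, and of cartilage markers 9.372 and 9.407. Other lists were higher in the KO: pregranulosa markers at 11.316 against 11.003, and mesonephros and duct markers at 11.77 against 11.555. Endothelial markers were at 12.296 against 12.228 and germ cell markers at 11.106 against 11.037. The part of these lists in the differences was not tested. At E12.5 the same 9 genes had KO minus WT differences in males from 0 to 0.38.

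Differences of the same sign at both stages in males were small. Col26a1 was positive (0.21 ± 0.08, pairs 0.09 and 0.32), as were Lamb2 (0.14 ± 0.06) and Col4a5 (0.06 ± 0.11). Col4a4 (-0.12 ± 0.04), Col7a1, the collagen of anchoring fibrils (-0.17 ± 0.13), and Col9a2 (-0.15 ± 0.08) were negative. Limma adjusted p for these 6 lay from 0.794 to 0.915. Over both sexes, 3 genes were positive in all 4 pairs (8.57%, beside 3.14% of all probe sets), namely Lama4, a laminin chain of blood vessels, Lamb1 and Col5a2, the last with differences near 0 in 2 pairs. Lama4 differed by 0.14 and 0.39 in females and by 0.44 and 0.03 in males at E12.5 and E14.5 (0.25 ± 0.09, limma adjusted p = 0.843), and Lamb1 by 0.08 ± 0.04 (limma adjusted p = 0.894). Endothelial markers summed to 12.23 to 12.59 over the arrays, and 7 of 11 were positive in KO females and 10 of 11 in KO males, with 0 passing.

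Within E12.5, the genes with the same sign in both sexes and the largest smaller pair difference were Col14a1 (0.24 ± 0.10, pairs 0.32 in females and 0.16 in males), Col15a1 (0.23 ± 0.14), Col4a1 (0.21 ± 0.12), Col7a1 (-0.22 ± 0.13), Lama5 (-0.20 ± 0.10) and Lama1 (-0.14 ± 0.09). Lama4 (0.29 ± 0.12) and Col6a3 (0.27 ± 0.18) had larger means there, with a smaller difference in females. By the same rule at E14.5 they were Col4a5 (0.13 ± 0.11), Lama1 (0.12 ± 0.09) and Nid2 (0.12 ± 0.09), while Lama4 had a larger mean (0.21 ± 0.12) with a difference of 0.03 in males. Each had limma adjusted p = 1.0. When either E14.5 female array was left out, Lama2 (-0.33), Col12a1 (-0.13) and Nid1 (-0.08) passed as lower at E14.5, with limma adjusted p from 0.0451 to 0.0493. These 3 were named after their values were seen, and for Nid1 and Col12a1 all arrays but the E14.5 males sit at the floor, as all 4 E12.5 arrays do for Lama2.

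**Figure D5:**
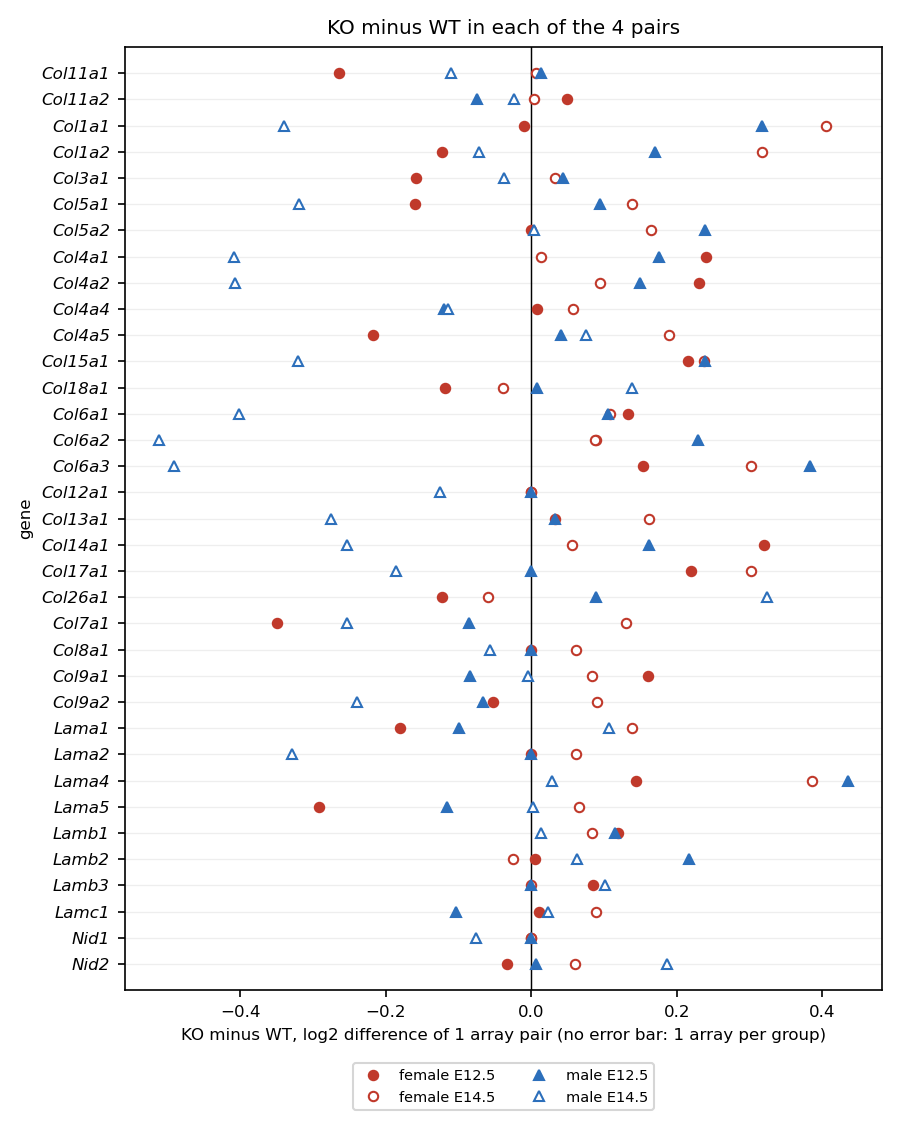
KO minus WT log2 difference of each of the 4 array pairs for the 35 fitted genes, with circles for females, triangles for males, filled for E12.5 and open for E14.5; no error bar can be drawn with 1 array per group. Open triangles (male E14.5) lie at -0.40 or lower for the 3 collagen VI chains, Col4a1 and Col4a2, while the filled symbols of those genes lie to the right of 0.

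Genes that make, bind or break down these chains were followed in 4 lists. Enzymes and chaperones of collagen assembly (14 fitted genes) had 2 higher and 0 lower in males at E12.5, where 7.79% of all probe sets were higher and 8.51% lower: P3h3, a prolyl hydroxylase (0.62 ± 0.08, limma adjusted p = 0.0225), and Serpinh1, the collagen chaperone of the endoplasmic reticulum (0.43 ± 0.07, limma adjusted p = 0.0274). Other matrix partners (19 fitted) had 6 higher and 1 lower, led by the fibulin gene Fbln2 (1.04 ± 0.10), Tinagl1, a basement membrane protein (0.96 ± 0.13), Sparc, which binds collagens (0.72 ± 0.11), and Smoc2 (0.61 ± 0.12). Receptors (15 fitted) had 1 higher, the integrin gene Itga5 (at least 0.47, from under the floor in females), and 2 lower, the integrin gene Itgav (-0.41 ± 0.08) and the dystroglycan gene Dag1 (-0.26 ± 0.05). Proteases and their inhibitors (10 fitted) had 0 in either direction.

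From E12.5 to E14.5 in females, 7 of 19 matrix partners rose and 1 fell, where 8.41% of all probe sets rose and 14.6% fell. Dcn, the small proteoglycan decorin that coats collagen fibrils, changed by 1.17 ± 0.07, Mgp by 0.82 ± 0.08, and Thbs2, under the floor at E12.5, by at least 0.96. Lox, the enzyme that crosslinks collagens, was under the floor at E12.5 and rose by at least 1.14 (limma adjusted p = 0.00869) and P3h3 by 0.34 ± 0.08, while Bmp1, which trims procollagens (-0.46 ± 0.09), and P4ha1 (-0.44 ± 0.07) fell. Of the receptors, 0 rose and 3 fell, among them Itga8, which was under the floor at E14.5, so that its fitted difference of -0.67 is a bound on the fall. Ctsk, a collagen-cleaving cathepsin (0.75 ± 0.05), and Timp3 (0.43 ± 0.09) rose among the proteases and inhibitors and Plat fell (-0.49 ± 0.10). In males, where 77.8% of all probe sets passed, the counts were 7 higher and 5 lower for assembly, 4 and 7 for receptors, 7 and 6 for partners and 3 and 5 for proteases. In the KO comparisons of each sex, 0 genes of the 4 lists passed.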

How the data were processed

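Per the submitters' processing notes, the authors made the deposited values with MAS5; the sources used here give neither its version nor its scaling. The deposited values read as log2 signals of 12488 probe sets on each of 8 arrays. On the KO male E12.5 array, 14 deposited cells held spreadsheet date numbers of another kind and were set to missing, none of them in a gene described here. Arrays were centred on the common median, floored at the 40th percentile (6.99) and, without the 66 control probe sets, fitted with limma 3.58.1 in R 4.3.3 as sex by stage means plus a KO effect within each sex. Moderation with an intensity trend added 2.77 prior degrees of freedom. A second fit placed the KO effect within each stage, with 2 residual and 4.375 prior degrees of freedom. The code was tested on simulated data. The number of arrays, 1 per group, limits the precision, and p-values measure only the spread between these arrays.

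Values on each array are given for up to 12 passing genes per comparison, or otherwise for up to 3 per direction with the largest smaller pair difference, and for up to 4 passing genes of each pathway list. The genes and lists were chosen with earlier results of these data known. Gene names came from the platform annotation, of which 10817 of 10833 single-gene probe sets matched RefSeq, as did all 41 genes. Promoters are RefSeq sequences of GRCm38.p6. Alternatives changed the floor, filter, scaling, probe set rule, variance model, KO model and arrays used.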

Additional observations from a re-analysis of the deposited data

Results flagged for a closer look

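The change from E12.5 to E14.5 differed between males and females, by the limma test of the male change minus the female change, for 18 of the 35 fitted genes, while 69.0% of all probe sets passed the same test. More positive in males were Col4a4 (1.27), Col17a1 (1.17), Lamb3 (0.88), Col11a2 (0.87), Col9a1 (0.81), Lama5 (0.77), Lamb1 (0.59), Col12a1 (0.43), Lamc1 (0.41) and Lama2 (0.39). Less positive were Col4a1 (-1.19), Col5a2 (-1.15), Col15a1 (-1.01), Col13a1 (-0.92), Col3a1 (-0.77), Col4a5 (-0.77), Col6a1 (-0.71) and Col9a2 (-0.37). All of these values rest on the E14.5 male arrays, which stood apart from the other 6, and array-level differences and testis development cannot be told apart in them. For Lamb1 the sign depends on the probe set, and Col12a1 was above the floor on the E14.5 male arrays alone, on its chosen probe set only. Further probe sets of Lamb3 and Col13a1 changed by 0.15 and -0.21 in males and by 0.0 and -0.01 in females. Values of Lamb3, Col4a4, Col17a1 and Lama2 also depend on arrays at the floor.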

How the results depend on the processing

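For the named genes, 1033 values under other settings kept their direction and their side of the threshold, 204 kept the direction without passing, and 3 turned: Col18a1 in KO females under quantile normalization (0.008), Col9a1 over the stages in males without centring (-0.13) and Lamb1 between the sexes at E14.5 on the mean of its probe sets (-0.33). For the sex difference at E12.5 the count of 7 became 12 without a floor, 16 without centring, 0 without the filter on low values, 0 without both E14.5 male arrays, and 0 to 0 with 1 array left out. For the stage change in females the count of 7 became 12, 14, 0, 0 and 0 to 0 in the same order. Without the filter, the sex difference at E14.5 gave 14 and the difference of stage changes 11. With 1 array left out, the sex difference at E14.5 gave 12 to 19 genes (12 without WT female E14.5 and 13 without KO female E14.5) and the KO effect at E14.5 0 to 3 (3 without either E14.5 female array). A fit with 1 array left out has 1 pair fewer behind its spread and assumes that the lone array varies like the others; beyond this, the causes were not tested. Stage and sex contrasts that need the E14.5 male arrays could not be fitted without them, nor could KO effects within a sex or stage under a single common KO effect. No paired analysis was possible because each group has 1 array and the replicate number is only a name.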

Other observations

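Over the 8 arrays, the fitted genes whose pattern was most like that of Col4a1 were Tpm1 (Pearson r of 0.991), Gpm6b (0.981), Comtd1 (0.972), Myadm (0.971) and Aspm (0.964). These values are a description: the arrays hold 1 sample of each group, share the centring, and include the E14.5 males that stand apart. Gpm6b was above the floor on the E12.5 male arrays alone (7.03 and 7.17, against 6.23 to 6.67 elsewhere), so its correlation rests largely on values under the floor. Tpm1, a tropomyosin gene, was at 10.57 and 10.83 in females and 11.12 and 11.26 in males at E12.5, and at 10.81 and 10.75 in females and 10.63 and 10.40 in males at E14.5.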
